A study of Homo sapiens with 4 samples.

Results

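The Krüppel-like factors (KLFs) are transcription factors that bind GC-rich DNA through a row of C2H2 zinc fingers at the C-terminus, and 10 of their genes were followed here in an intestinal epithelial cell line before and after interferon gamma (IFNγ). The genes are KLF2, KLF3, KLF4, KLF5, KLF6, KLF7, KLF9, KLF10, KLF11 and KLF13. They were chosen by name, and each was found by its Ensembl identifier as 1 of the 37515 genes in the count table. The choice used no measured value, but it was made with earlier results of these data known. Of the 10 genes, 8 had enough reads to be tested, and KLF2 and KLF7 did not.

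The cells were Caco-2, a human colorectal carcinoma line that forms a polarized, enterocyte-like layer when it is grown on a permeable support. They were kept on transwell inserts for 15 days before the cytokine was added to the basal compartment. The control group was unstimulated cells at 0 h, with 2 libraries, and the treated group was cells given 60 ng/ml IFNγ for 3 h, also with 2 libraries. IFNγ is the cytokine that activated T cells release in the inflamed gut, and the comparison asks how epithelial gene expression responds to it. The treated cells were collected 3 h later than the controls, so IFNγ and the elapsed time cannot be told apart. All libraries came from 1 cell line and carry the tag WT in their titles, with no altered gene named, and the labels do not say whether replicates were separate cultures, so p-values here measure only the spread between these libraries, which may be technical.

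As background, KLF proteins share their DNA-binding end and differ in the rest of the protein, which recruits partners. KLF2, KLF4, KLF5, KLF6 and KLF7 are mostly known as activators that work with acetyltransferases. KLF3, like KLF8 and KLF12, binds the corepressor CtBP. KLF9, KLF10, KLF11, KLF13 and KLF16 bind the corepressor Sin3A. In the intestine KLF5 is known from dividing crypt cells and KLF4 from non-dividing, differentiated cells, where it restrains growth and takes part in goblet cell formation.

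Each library held 7171455 to 10365346 counted reads. RNA levels of 1 gene are given below as CPM, counts scaled to a common library size of 1000000 reads, with library sizes scaled by the TMM method. A gene was called when edgeR's quasi-likelihood test gave a Benjamini-Hochberg adjusted p under 0.05 and the log2 fold change was beyond 1 in size, over 14820 genes tested. IFNγ target genes followed the labels: 9 of 10 listed ones were called higher, with a log2 fold change of 5.86 for the transcription factor IRF1. With DESeq2, 7 of the 10 were called higher. All 11 epithelial markers listed passed the filter on low counts, with 102 to 18632 reads in each library. They also moved between the groups: 1 was called higher and 1 lower, and 4 were higher and 2 lower by the adjusted p alone. The called ones, named after their values were seen, were the intestinal transcription factor gene CDX2 at a log2 fold change of 1.20 (edgeR adjusted p = 0.0012) and the brush border enzyme gene SI, sucrase-isomaltase, at -1.13 (edgeR adjusted p = 0.0256). With the GC and length trend removed both lost the call, at 0.99 and -0.68, and SI also did at -0.76 without IFNγ replicate 2. The part of these shifts in the KLF values was not tested. The 6 leukocyte markers summed to 6.43 to 8.27 CPM in the unstimulated and 9.53 to 11.3 CPM in the IFNγ libraries. Most of it was CD14, with 3.51 and 4.76 CPM at 0 h and 5.74 and 8.87 CPM at 3 h. Its log2 fold change of 0.82 did not pass (edgeR adjusted p = 0.116). LYZ was tested as well, with 22 and 21 reads at 0 h and 26 and 12 at 3 h, and did not pass. CD3E had 4 and 4 reads at 0 h and 10 and 6 at 3 h. PTPRC was at 0 in both unstimulated libraries and in 1 of the IFNγ libraries. The 6 stromal and endothelial markers found summed to 103 to 198 CPM and 138 to 180 CPM, most of it COL1A1, with DCN at 0 in both IFNγ libraries. Neither marker list held a called gene, and the part of other cells in the KLF values was not tested. In bulk RNA, fewer cells that express a gene and less RNA of it in each cell cannot be told apart.

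After 3 h of IFNγ, 3 of the 8 KLF genes tested were called higher and 0 were called lower, and DESeq2 gave the same counts. KLF4 rose 4.23-fold, KLF13 2.20-fold and KLF6 2.05-fold. KLF10 was also higher, by 1.69-fold, which passed the adjusted p but not the fold threshold. KLF3, KLF5, KLF9 and KLF11 did not pass the test, and KLF2 and KLF7 were barely detected. Of all genes tested, 2.88% were called higher and 4.40% lower. By the adjusted p alone, and also at an unadjusted p under 0.05, 4 of the 8 were higher and 0 lower in edgeR. Past the adjusted p were 9.02% and 11.0% of all genes. The share of all genes at an unadjusted p under 0.05 was not counted, here or for the lists below. Such p-values were common: KLF15, outside the 10, ranked 4149 of 14820 genes at an unadjusted p of 0.0249 (edgeR). The median log2 fold change of the 8 was 0.39, beside -0.01 over all genes tested. It was 0.03 over all 11 KLF genes tested, which include 3 outside the 10. The values of the treated libraries lay wholly above those of the untreated ones for 4 of the 8 and wholly below for 1, and among all genes 31.6% and 30.8% did so.

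**Figure D1:**
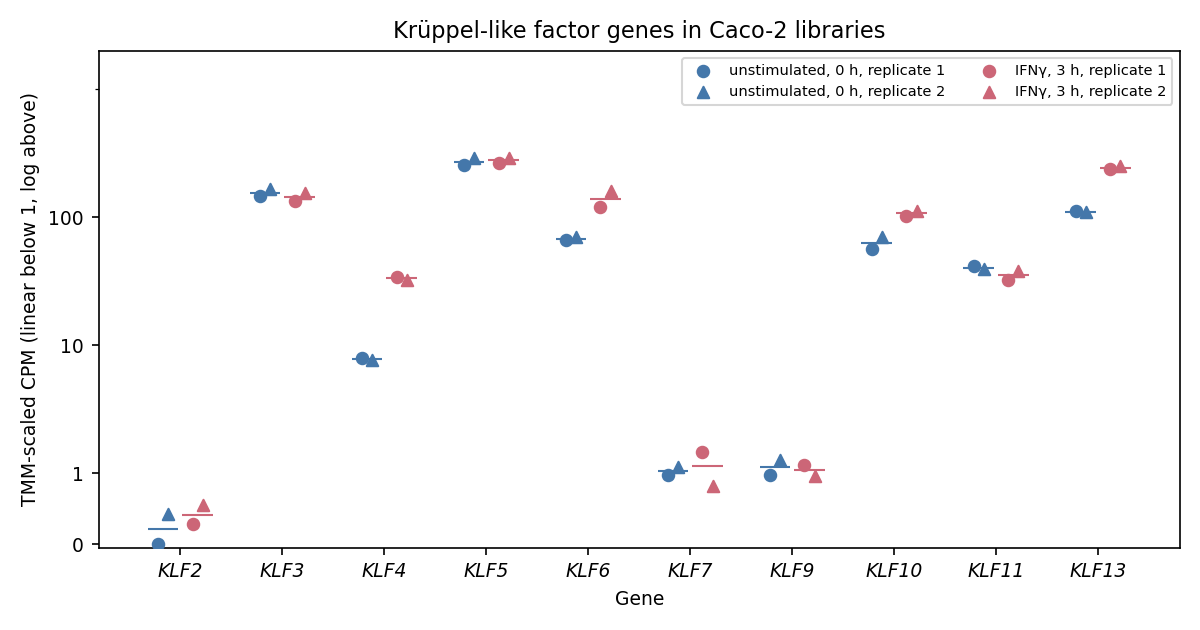
TMM-scaled CPM (vertical axis, linear below 1 and logarithmic above) of the 10 KLF genes in each library. Circles are replicate 1, triangles replicate 2, blue is unstimulated at 0 h, red is IFNγ at 3 h, and bars are means of 2 libraries. The red points of KLF4, KLF6, KLF10 and KLF13 lie above the blue ones, while KLF2, KLF7 and KLF9 stay near or below 1 CPM.

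Among the activators, KLF4 showed the largest log2 fold change of the 8 genes tested. KLF4 (ENSG00000136826) lies on the minus strand at chr9:110247133-110252763 of GRCh37, and its product is one of the factors used to reprogram somatic cells to pluripotency. It measured 7.98 and 7.71 CPM in the unstimulated libraries, from 82 and 55 reads, and 34.0 and 32.5 CPM in the IFNγ libraries, from 350 and 238 reads. The groups did not overlap, and the replicates within each group differed far less than the groups. The log2 fold change was 2.08 with a standard error of 0.16 and a 95% interval of 1.70 to 2.46 (edgeR adjusted p = 0.0007), rank 55 by p among all genes tested. An antisense gene overlaps 357 bases of KLF4's exons, 9.7% of their length. Whether the counting used strand is not given in the sources used here, so reads of the 2 cannot be told apart there.

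KLF6 (ENSG00000067082, minus strand, chr10:3818188-3827473 of GRCh37) encodes a broadly expressed factor described as an early response gene and as a tumor suppressor. Its values were 66.8 and 69.5 CPM without IFNγ, and 120 and 160 CPM with it. Both treated libraries lay above both untreated ones, but they were farther apart from each other than the untreated pair, with means of 68.1 ± 1.90 and 140.0 ± 28.6 CPM (SD, n = 2 each). The log2 fold change was 1.04 with a standard error of 0.16 (edgeR adjusted p = 0.0056), just above the fold threshold. It fell under that threshold, to 0.79, when IFNγ replicate 2 was left out, and to 0.99 when libraries were scaled by their size alone. The adjusted p stayed under 0.05 both times (edgeR, 0.0039 and 0.0067), and 2 of the 10 members were then called.

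KLF5 was the most abundant of the 10 genes and showed next to no change. KLF5 (ENSG00000102554, plus strand, chr13:73629114-73651679 of GRCh37) supports proliferation of intestinal crypt cells. It measured 255 and 290 CPM at 0 h and 266 and 290 CPM at 3 h, so the groups overlapped. KLF5's log2 fold change was 0.03 with a standard error of 0.12 and a 95% interval of -0.25 to 0.31 (edgeR adjusted p = 0.891). With 2072 to 2733 reads in each library, KLF5 was also the best sampled of the family.

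KLF2 and KLF7 were close to the limit of detection. KLF2 (ENSG00000127528, plus strand, chr19:16435637-16439496 of GRCh37), known for keeping endothelial cells and T cells quiescent, had 0 and 3 reads at 0 h and 3 and 4 at 3 h. No fold is given, as the counts are at about the 3 reads that a count of 0 allows. Reads were also assigned to the KLF2 pseudogenes: KLF2P1 held 17 and 4 reads at 0 h and 11 and 2 at 3 h. How reads shared by such copies were counted is not given in the sources used here, so the KLF2 count is uncertain. KLF7 (ENSG00000118263, minus strand, chr2:207938861-208038580 of GRCh37), known from neurons, had 10 and 8 reads at 0 h and 15 and 6 at 3 h. KLF7 ranged from 0.819 to 1.46 CPM with both ends in the treated group, so the groups overlapped.

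KLF3, the one member of the CtBP-binding class among the 10, did not pass the test. KLF3 (ENSG00000109787, plus strand, chr4:38665818-38703138 of GRCh37) acts as a repressor in blood and fat cells. It measured 146 and 165 CPM in the unstimulated and 134 and 154 CPM in the IFNγ libraries, which overlap. Its log2 fold change of -0.11 had a 95% interval of -0.41 to 0.19 (edgeR adjusted p = 0.577). Once each library was corrected for its trend in GC content and length, the sign turned, to 0.21, and the test was still not passed (edgeR adjusted p = 0.301). KLF3-AS1 overlaps 265 exon bases of KLF3 on the other strand and held at most 1 read in a library.

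Of the Sin3A-binding class, KLF13 had the largest log2 fold change of the 4 members. KLF13 (ENSG00000169926, plus strand, chr15:31619038-31727868 of GRCh37) is known from T cells, where it activates the chemokine gene CCL5. It measured 112 and 110 CPM at 0 h, from 1146 and 784 reads, and 238 and 249 CPM at 3 h, from 2450 and 1827 reads. The groups stood clear of each other, with SDs of 1.24 and 7.76 CPM (n = 2 each). The log2 fold change was 1.14 with a standard error of 0.11 and a 95% interval of 0.88 to 1.39 (edgeR adjusted p = 0.0014). Since the interval reaches below 1, a fold above the threshold is not established. When the test asked for a log2 fold change beyond 1 instead of any change (glmTreat in edgeR), KLF4 was the 1 member that passed.

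KLF9 and KLF11 did not pass the test. KLF9 (ENSG00000119138, minus strand, chr9:72999520-73029573 of GRCh37), a gene induced by glucocorticoid and thyroid hormone, had 10 and 9 reads at 0 h and 12 and 7 at 3 h. Its log2 fold change was -0.04 with a 95% interval of -1.13 to 1.06 (edgeR adjusted p = 0.984), so a change as large as that of KLF6 was not detectable at this depth. KLF11 (ENSG00000172059, plus strand, chr2:10182976-10194963 of GRCh37), induced by TGF-β, was the 1 member whose treated libraries both lay below the untreated ones. It measured 41.5 and 39.4 CPM without and 32.1 and 38.3 CPM with IFNγ. For KLF11 the log2 fold change was -0.20 with a 95% interval of -0.55 to 0.14 (edgeR adjusted p = 0.368). An antisense gene overlaps 416 exon bases of KLF11, 9.1% of their length.

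The promoters of KLF4, KLF6 and KLF13 are shown because these are the 3 members called. The 250 bases before the start site come from RefSeq on GRCh38.p14, read 5′ to 3′ on the strand of the gene, and span chr9:107489770-107490019 on the minus strand for KLF4, chr10:3785210-3785459 on the minus strand for KLF6 and chr15:31326585-31326834 on the plus strand for KLF13. Capitals mark matches, on either strand, to the GC box GGGCGG, a sequence that SP and KLF proteins can bind, and to the E-box CACGTG.
KLF4: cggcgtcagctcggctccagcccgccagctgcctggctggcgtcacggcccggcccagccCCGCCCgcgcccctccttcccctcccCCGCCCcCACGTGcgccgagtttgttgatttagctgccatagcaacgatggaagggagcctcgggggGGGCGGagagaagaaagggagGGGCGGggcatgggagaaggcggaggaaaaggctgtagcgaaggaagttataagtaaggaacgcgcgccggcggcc
KLF6: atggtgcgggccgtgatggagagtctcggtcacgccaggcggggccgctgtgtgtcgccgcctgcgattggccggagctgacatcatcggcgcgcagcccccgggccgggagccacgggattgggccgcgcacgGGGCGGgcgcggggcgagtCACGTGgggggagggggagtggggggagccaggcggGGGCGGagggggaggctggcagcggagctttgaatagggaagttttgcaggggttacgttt
KLF13: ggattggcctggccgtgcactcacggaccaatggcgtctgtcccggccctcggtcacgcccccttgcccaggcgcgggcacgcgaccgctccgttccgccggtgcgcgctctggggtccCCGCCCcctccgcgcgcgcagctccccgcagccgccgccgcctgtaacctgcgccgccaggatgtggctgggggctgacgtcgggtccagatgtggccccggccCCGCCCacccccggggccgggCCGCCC

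In the stretches shown, the GC box occurs 4 times in KLF4, 2 times in KLF6 and 3 times in KLF13, and the E-box 1 time each in KLF4 and KLF6. The E-box was in 4 of the 13 promoter entries of the members, which include entries of KLF7 and KLF11, genes that were not called. The GC box was found in 45.0% and the E-box in 7.26% of all 35116 promoters in the table, each taken from 250 bases before to 50 after a start site, with both strands searched. Members had 13 promoter entries in all, for 8 of the 10 genes, and 8 of the 13 held a GC box. CACCC, a short site of KLF proteins that is found in 59.9% of promoters, was in 7 of the 13. The single CACCC of KLF13 shares 1 base with a GC box. Sites of signal-responsive factors were searched as well. The CArG box of serum response factor was in 1 of the 13 entries (KLF7) and in 1.29% of all promoters. The letters TTCNNNGAA, an interferon gamma-activated sequence, were in 1 of the 13 entries (KLF7) and in 7.66% of all. The cAMP-response element TGACGTCA was in 1 of the 13 entries (KLF11) and in 1.85% of all. The AP-1 letters TGANTCA, in 7.71% of all, and a repeat of the interferon-stimulated response element type (TTTC, any 2 bases, then TTTC), in 3.57%, were in 0 of the 13. These counts describe letters in short windows and say nothing about binding.

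KLF10, a further member of the Sin3A-binding class, was higher in both treated libraries. KLF10 (ENSG00000155090), also known as TGF-β-inducible early gene, measured 56.3 and 70.6 CPM at 0 h and 103 and 111 CPM at 3 h. The groups did not overlap, although the 2 unstimulated libraries were farther apart than those of most other members, with an SD of 10.1 CPM. The log2 fold change was 0.76 with a standard error of 0.14 and a 95% interval of 0.42 to 1.10 (edgeR adjusted p = 0.0119). It ranged from 0.60 to 0.93 when single libraries were left out. The gene is on the minus strand of GRCh37 at chr8:103661012-103667953.

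**Figure D2:**
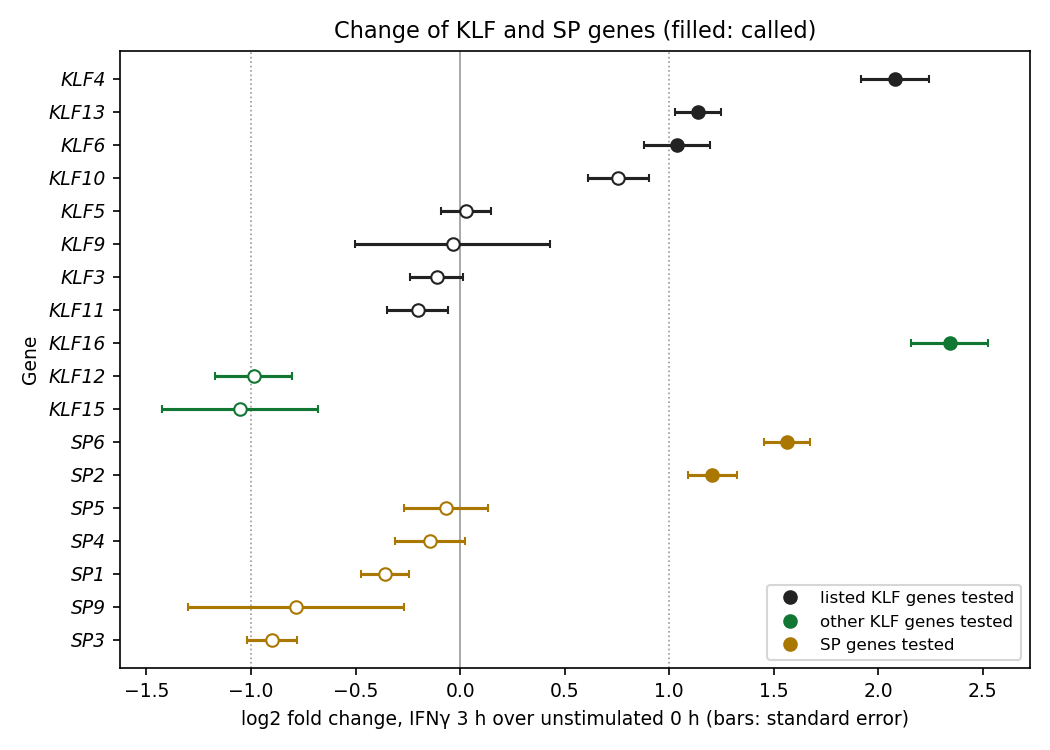
Log2 fold change of IFNγ at 3 h over unstimulated at 0 h (horizontal axis) for the 8 listed KLF genes tested (black), 3 further KLF genes (green) and 7 SP genes (brown), with bars of 1 standard error. Filled points are called genes and dotted lines mark the fold threshold. KLF4 at 2.08 and KLF16 at 2.34 lie farthest to the right.

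The levels of the members were compared with each other per length, as CPM per kilobase of exon. At 0 h the order was KLF5 (74.1 ± 6.85 CPM per kilobase, SD, n = 2), KLF3 (23.0), KLF10 (16.6), KLF13 (11.7), KLF6 (11.1), KLF11 (8.80), KLF4 (2.14), KLF9 (0.215), KLF7 (0.109) and KLF2 (0.0745). KLF7 and KLF2 were the 1 pair of neighbors whose libraries overlapped at 0 h. The places of KLF9, KLF7 and KLF2 rest on 10 reads or fewer in each library at 0 h, so their order is not established. KLF9 and KLF7 had near equal counts there and differ by exon length, 5.20 and 9.62 kilobases. At 3 h KLF5 was still first with 75.5 ± 4.61 CPM per kilobase, followed by KLF10 (28.0), KLF13 (25.9), KLF6 (22.8), KLF3 (21.3), KLF4 (9.08), KLF11 (7.67), KLF9 (0.204), KLF2 (0.149) and KLF7 (0.118). KLF13 overlapped with KLF6, KLF6 with KLF3, KLF9 with KLF2 and KLF2 with KLF7, so these neighbors did not differ beyond their spread at 3 h. KLF3, second at 0 h, thus lay clearly below KLF10 and KLF13 at 3 h, without a change of its own that passed the test, and its place after KLF6 is within the spread. With the length of the longest transcript instead, the order at 3 h below KLF5 became KLF13, KLF6, KLF10 and KLF3, so the order of these genes depends on the gene model.

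The make-up of the summed level of the 10 listed genes changed with these shifts. KLF genes outside the 10 are not in this sum. Of these, KLF16 went from a mean of 1.99 CPM per kilobase at 0 h to 10.1 at 3 h. KLF12 went from 1.59 to 0.804 and KLF15 from 1.00 to 0.484. The summed level of the 10 genes was 140 and 156 CPM per kilobase at 0 h, and 180 and 201 at 3 h. KLF5 made up 49.5% and 50.6% of the sum at 0 h and 40.0% and 39.2% at 3 h. KLF4 rose from 1.56% and 1.35% to 5.15% and 4.42%. The ratio of KLF5 to KLF4, the crypt and the differentiation factor, was 31.7 and 37.5 before and 7.77 and 8.88 after IFNγ, with KLF4 as the member that moved. These shares follow from the values above and were not tested again.

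**Figure D3:**
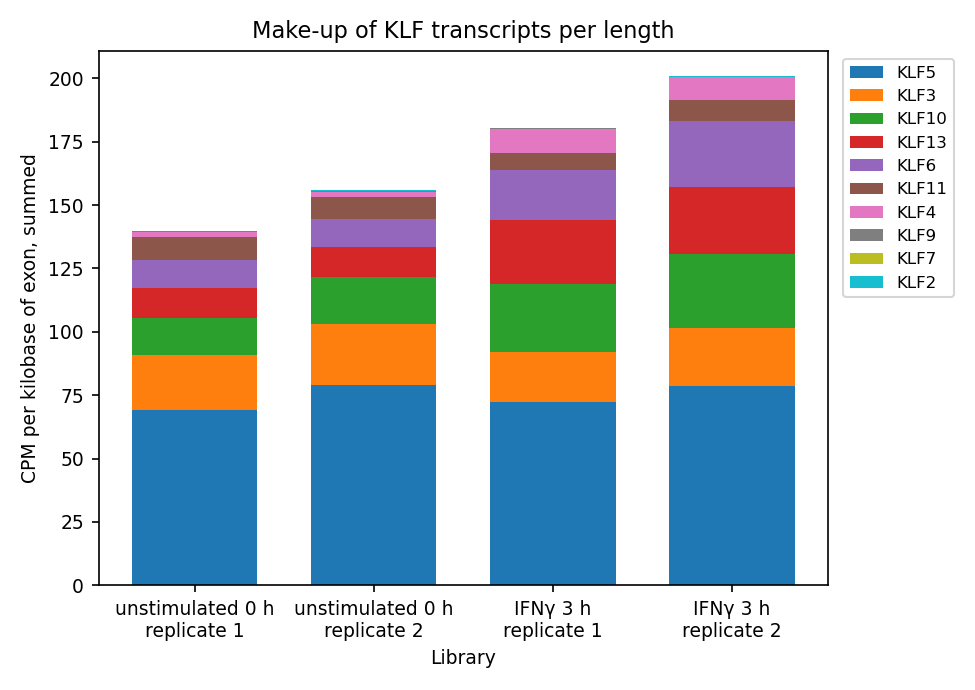
Summed CPM per kilobase of exon (vertical axis, from 0) of the 10 KLF genes in each of the 4 libraries, split by gene. KLF5 is the tallest segment in every library, at 49.5% and 50.6% of the sum before and 40.0% and 39.2% after IFNγ.

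Fold changes in these libraries moved with GC content. Across 14518 tested genes with a known sequence, the log2 fold change and the GC content of the transcript had a Spearman correlation of 0.431, given as a description because genes share their libraries. The transcripts of KLF4 and KLF13 have 55.9% and 57.7% GC, and the median log2 fold change of genes in the same 2.5% wide bins was 0.21 and 0.19. KLF6 and KLF10 have 45.7% and 47.2% GC, where the median was -0.02. All 4 thus lay above the median of genes of like GC content. With the trend in GC content and length removed, the log2 fold changes were 1.88 for KLF4, 1.11 for KLF6, 1.03 for KLF13 and 0.74 for KLF10, and the same 3 were called. The correction mattered more for all genes: 427 were called higher and 652 lower of 14820 without it, and 410 and 307 of 14518 with it. The corrected fit left out genes without a known sequence.

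**Figure D4:**
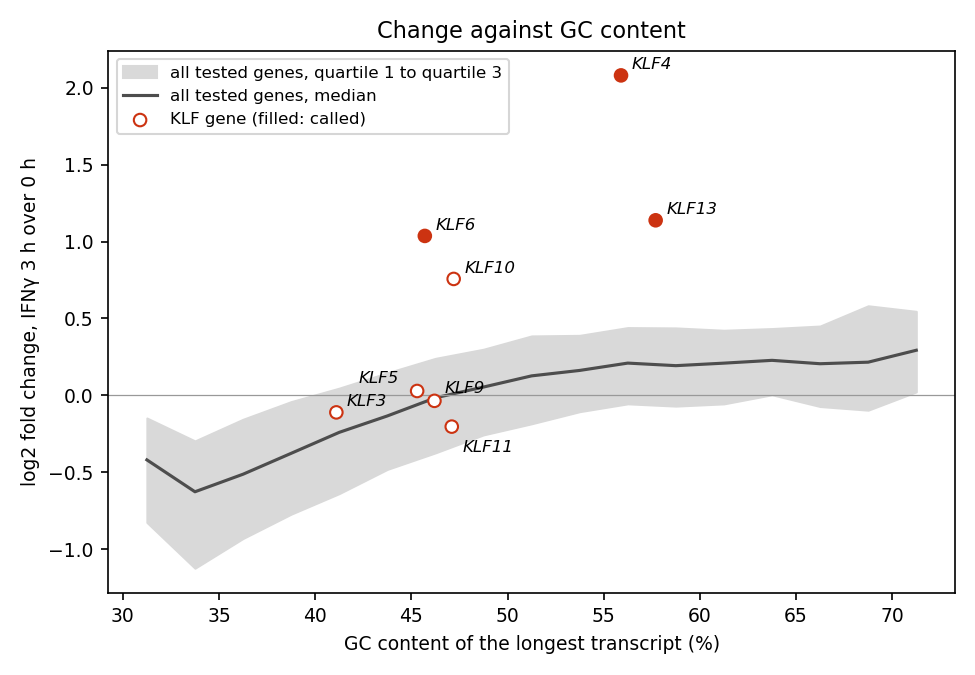
Log2 fold change after IFNγ (vertical axis) against GC content of the longest transcript in percent (horizontal axis). The line is the median and the band runs from quartile 1 to quartile 3 of all tested genes in bins of 2.5%, and points are the 8 KLF genes tested, filled where called. KLF4, KLF6, KLF10 and KLF13 lie above the band.

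Among the KLF genes outside the 10, KLF16 rose and KLF12 fell by the adjusted p. KLF16, a Sin3A-binding repressor, measured 6.04 and 5.74 CPM at 0 h and 27.5 and 32.6 CPM at 3 h. Its log2 fold change of 2.34 had a standard error of 0.18 (edgeR adjusted p = 0.0008), beside 2.08 for KLF4. KLF16 also passed glmTreat (edgeR adjusted p = 0.0071), and the difference between these 2 genes was not tested. KLF12, a CtBP-binding repressor, went from 18.4 and 18.2 CPM to 8.46 and 10.1 CPM, a log2 fold change of -0.99 with a standard error of 0.18 that fell just short of the fold threshold (edgeR adjusted p = 0.0107). With the GC and length trend removed it was -0.46 and no longer passed (edgeR adjusted p = 0.164). KLF15, which is known from glucose metabolism in liver and muscle, had a log2 fold change of -1.05 and did not pass (edgeR adjusted p = 0.0889). KLF1, KLF8 and KLF17 had too few reads to be tested. KLF14 and KLF18 were not analysed here, as the identifiers used for them had no row in the counts. With the 10 members, 11 KLF genes were tested, of which 4 were called higher and 0 lower, beside 2.88% and 4.40% of all genes tested. The median log2 fold change was -0.99 for the 3 further genes, 0.39 for the 8 and 0.03 for the 11. With the GC and length trend removed these medians were -0.46, 0.47 and 0.21.

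The SP factors are the closest relatives of the KLFs and bind the same GC boxes. Of 9 listed, 7 were tested, 2 were called higher and 0 lower, and 2 were higher and 1 lower by the adjusted p alone. SP6, known from tooth and skin epithelium, rose from 70.7 and 72.9 CPM to 212 and 212 CPM, a log2 fold change of 1.56 (edgeR adjusted p = 0.0005). SP2 rose from 46.8 and 44.0 CPM to 103 and 106 CPM, a log2 fold change of 1.21 (edgeR adjusted p = 0.0015), though not beyond 1 by glmTreat (adjusted p = 0.579). SP3, a widely expressed factor, fell from 204 and 229 CPM to 119 and 113 CPM, a log2 fold change of -0.90 (edgeR adjusted p = 0.0036). With the GC and length trend removed, SP3 was at -0.27 and did not pass (edgeR adjusted p = 0.179). SP1, the founding member, had a log2 fold change of -0.36 and did not pass (edgeR adjusted p = 0.0638). The median of the 7 was -0.14, beside -0.01 over all genes. Called higher and lower were 2.88% and 4.40% of all genes, and past the adjusted p alone 9.02% and 11.0%.

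Regulators known to act upstream of KLF genes were listed in 3 groups. For these and the lists that follow, the shares over all genes tested are the background. They were 2.88% called higher and 4.40% lower, and 9.02% and 11.0% by the adjusted p alone. The ERK5 and MEF2 route, which induces KLF2 and KLF4 in endothelial cells, had 4 genes tested, with a median log2 fold change of -0.41. By the adjusted p alone 1 of the 4 was higher and 1 lower in edgeR, and 1 was called higher and 0 lower. The called gene was MAPK7, which encodes ERK5, with 24.0 and 22.7 CPM at 0 h and 55.4 and 51.0 CPM at 3 h, a log2 fold change of 1.19 (edgeR adjusted p = 0.0025), not beyond 1 by glmTreat (adjusted p = 0.857). Of the KLF genes known as targets of this route, KLF2 stayed at 4 reads or fewer in every library and was not tested, and KLF4 rose 4.23-fold. The part of this route in these values was not tested. Of the serum response factor group, which drives early response genes, 5 were tested, with a median log2 fold change of 0.24. By the adjusted p alone 1 of the 5 was higher and 1 lower in edgeR, and 0 were called higher and 1 lower. The 1 was MRTFB, a coactivator of serum response factor listed as MKL2, with 72.9 and 51.0 CPM at 0 h and 30.3 and 18.6 CPM at 3 h, a log2 fold change of -1.33 (edgeR adjusted p = 0.0128), not beyond -1 by glmTreat (adjusted p = 0.945). Of the TGF-β and glucocorticoid group, 6 were tested and 0 called by edgeR or DESeq2. In edgeR 1 was higher and 4 lower by the adjusted p alone, and also at an unadjusted p under 0.05. Their median log2 fold change was -0.65. That median was -0.04 with the GC and length trend removed. The 2 genes with the smallest p were SMAD3, which carries the TGF-β signal to the nucleus, at -0.95 (edgeR adjusted p = 0.0036), and the glucocorticoid receptor gene NR3C1 at -0.84 (edgeR adjusted p = 0.0055). With the trend removed NR3C1 was at -0.38 and did not pass (edgeR adjusted p = 0.0696).

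The genes for partners and for the turnover of KLF proteins held no called gene. All 10 cofactor genes were tested and 0 were called by edgeR or DESeq2, with a median log2 fold change of 0.05. At an unadjusted p under 0.05 in edgeR, which was common among all genes, 3 were higher and 3 lower. By the adjusted p alone 0 were higher and 1 lower. That gene was SIN3A, the scaffold that KLF10, KLF11 and KLF13 bind, which fell from 94.6 and 92.5 CPM to 60.2 and 60.9 CPM, a log2 fold change of -0.63 (edgeR adjusted p = 0.0101). The next by p was the deacetylase gene HDAC3 at 0.36, which did not pass (edgeR adjusted p = 0.0617). Of the genes for ubiquitin ligases and related proteins that degrade KLFs, 5 were tested and 0 called by edgeR or DESeq2. By the adjusted p alone, and also at an unadjusted p under 0.05, 2 were higher and 2 lower in edgeR. Their median log2 fold change was -0.16, and -0.06 with the GC and length trend removed. The 2 lower ones were then at -0.32 and -0.11 and did not pass (edgeR adjusted p = 0.134 and 0.491), while the 2 higher ones still passed. The 2 with the smallest p were VHL, the substrate receptor of a ubiquitin ligase, at 0.81 (edgeR adjusted p = 0.0048) and the ligase gene SMURF1 at 0.74 (edgeR adjusted p = 0.0113).

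Genes described elsewhere as KLF targets were listed whatever the direction in which a KLF acts on them. Of 17 listed, 14 were tested, 2 were called higher and 0 lower. By the adjusted p alone 6 were higher and 0 lower, with a median log2 fold change of 0.44, beside -0.01 over all genes tested. Among all genes, 2.88% were called higher and 4.40% lower, and 9.02% and 11.0% passed the adjusted p. Whether the KLF genes had a part in these values was not tested. MYC, which drives cell growth, rose from 50.2 and 66.0 CPM to 387 and 459 CPM, a log2 fold change of 2.87 with a standard error of 0.17 (edgeR adjusted p = 0.0003). CCND1, which encodes cyclin D1 and is described as repressed by KLF4 and activated by KLF5, rose from 207 and 225 CPM to 492 and 583 CPM, a log2 fold change of 1.31 (edgeR adjusted p = 0.0015), not beyond 1 by glmTreat (adjusted p = 0.253). Targets of KLF2 in endothelial cells, THBD, S1PR1 and NOS3, had too few reads to be tested.

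The genes most like the members with the highest and the lowest log2 fold change were found by the distance of log2 CPM values, centered on the unstimulated mean, over the 4 libraries. Nearest to KLF4 were PLK3, a stress-response kinase gene, at a distance of 0.0578, ARHGAP20 at 0.131 and CD274, which encodes the immune checkpoint ligand PD-L1, at 0.139. Their log2 fold changes in the edgeR fit were 2.16, 2.89 and 2.99, beside 2.08 for KLF4, so the last 2 were not alike in size there. Nearest to KLF11 were PET100 at 0.0222, MATCAP2 at 0.0373 and CDK17 at 0.0423. A prior count of 2 was added, which draws low genes such as ARHGAP20 toward no change, and likeness over 4 libraries describes the pattern only.

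**Figure D5:**
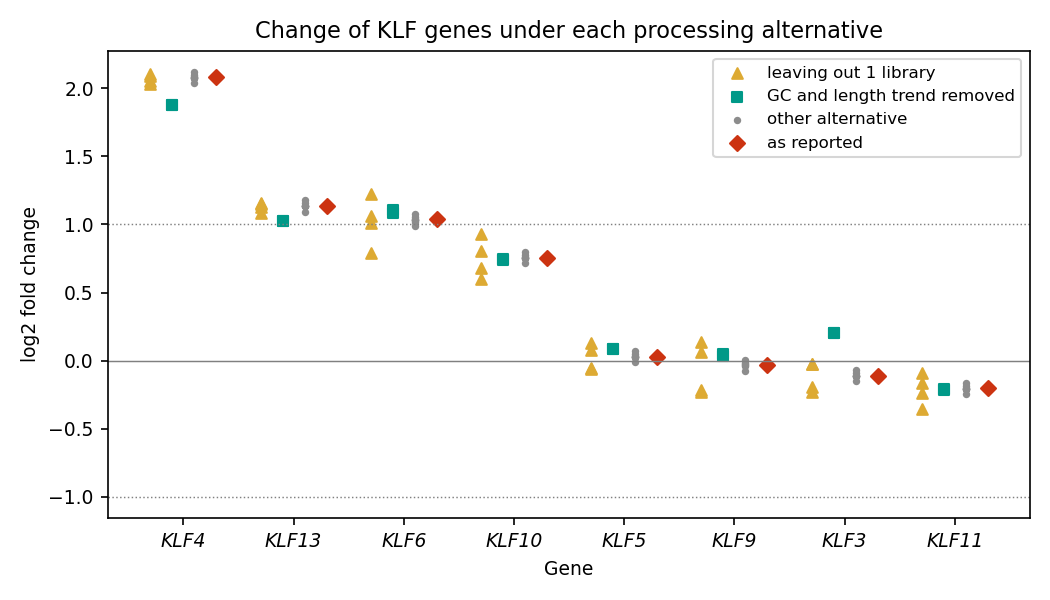
Log2 fold change (vertical axis) of the 8 KLF genes tested as reported (red diamonds) and under each processing alternative, with triangles for single libraries left out, squares for the GC and length trend removed and dots for the rest. KLF4 stays between 1.88 and 2.12, KLF6 ranges from 0.79 to 1.22 across the dotted threshold line, and KLF3, KLF5 and KLF9 lie on both sides of 0.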

How the data were processed

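For each of 4 Caco-2 libraries, the authors deposited read counts over Ensembl genes, neither normalized nor pooled. The submitters' processing notes name HISAT 0.5.1 and HTSeq 0.6.1p1. The genome build, annotation and strand setting of the counting are not given in the sources used here. Symbols matched 96.5% of identifiers, and gene models came from GENCODE on GRCh37. Counts were filtered with filterByExpr, scaled by TMM and tested with edgeR 4.0.16 in R 4.3.3, with Benjamini-Hochberg adjustment over all 14820 genes. Standard errors were the log2 fold change over the root of F. The script was tested on simulated data. Alternatives included DESeq2 1.42.0, other scalings, filters and thresholds, the replicate number as a block, removal of a loess trend in GC content and length (span 0.3), and each library left out. Members and lists were chosen with earlier results of these data known. All 10 members are named, and of other lists the KLF and SP genes tested, called genes and, where none was called, the 2 with the smallest p. Single values of 2 listed genes are not reported here. Protein sequences and the promoters of KLF3 and KLF10 were not analysed here. Precision is limited by the 2 libraries per group and by depth, at 7.17 to 10.4 reads per CPM before TMM scaling, and intervals cover the spread between these libraries only.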

Additional observations from a re-analysis of the deposited data

How the results depend on the processing

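KLF4 was called under all 14 alternatives that refit the model, with log2 fold changes of 1.88 to 2.12, and KLF13 under all but the test for a log2 fold change beyond 1. KLF10 stayed past the adjusted p in every refit except that test, and KLF11 kept its direction without passing. Scaled by library size alone, KLF5 turned to -0.013 and KLF6 lost its call (0.99), and with upper quartile scaling KLF9 turned to 0.0029. With the GC and length trend removed, KLF3 turned to 0.21 and KLF9 to 0.034, and 307 of 14518 genes, in place of 652 of 14820, were called lower. The test for a log2 fold change beyond 1 (glmTreat) left 1 of the 10 members by either count (KLF4), 67 genes higher and 46 lower. An adjusted p under 0.01 left 382 genes lower. With single libraries left out, 2 to 3 members were called, KLF5 ranged from -0.064 to 0.13 and KLF9 from -0.23 to 0.14, and 504 to 1239 genes were called lower. The highest of these counts, 1239, came without IFNγ replicate 1. The cause of these shifts was not tested. The same alternatives, applied after seeing the data to 20 named genes of other lists, reversed none of them, but under glmTreat SP2, MAPK7, MRTFB, CCND1, CDX2 and SI lost their calls. SI also lost its call in DESeq2 (adjusted p = 0.0546). KLF12 gained a call when scaled by library size alone (-1.03), and KLF15 with the trend removed and the replicate block (-1.29). With single libraries left out, KLF12 reached -1.14 and SMAD3 -1.05. Same-numbered libraries deviated together across genes (r = 0.415), but 2 pairs with no labelled batch do not establish pairing. With the replicate block, 3 members were still called, and 492 genes were called higher and 896 lower. The block together with the GC and length trend removed gave 0.20 for KLF3 and 0.046 for KLF9. DESeq2 gave no adjusted p for KLF9.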
